A study of Mus musculus with 12 samples.

Results

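The genes described here are 6 mouse genes of necroptosis, a regulated and lytic form of cell death: Zbp1, Ripk1, Ripk3, Mlkl, Fadd and Cflar. They were taken by name for their role, with no measured value in the rule, and are 6 of the 21911 protein-coding genes of the GENCODE annotation used. Open chromatin was mapped by ATAC-seq, which relies on a transposase that cuts and tags accessible DNA, in B16F10, a mouse melanoma line, and 4T1, a mouse mammary carcinoma line. Each line was kept untreated (control) or given DAC (decitabine) for 48 h, B16F10 at a dose of 0.1 µM and 4T1 at a dose of 1 µM, and dead cells were taken out with microbeads before the live cells were used. Each of the 4 groups held 3 libraries, so there were 12 peak lists. Because the dose differed with the line, line and dose cannot be told apart. Whether replicates came from separate cultures is not stated, and every p-value given here reflects only the spread between libraries, which may be technical.

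Necroptosis is carried by a short chain of proteins. ZBP1, a sensor of Z-form nucleic acids, and RIPK1, a kinase that acts below death receptors, engage the kinase RIPK3 through a shared RHIM motif, and RIPK3 phosphorylates MLKL, which then permeabilises the plasma membrane. The adaptor FADD, with caspase-8 and the caspase-8 homologue cFLIP that Cflar encodes, restrains this chain, and RIPK3 is known for being silenced in many tumour lines. Decitabine is a cytidine analogue that cells incorporate into their DNA, where it holds methyltransferases captive, so that methylation at CpG dinucleotides is lost as cells divide.

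A promoter was taken as 1000 bp either side of any annotated transcript start of a gene, and a library called it when at least 1 of its peaks overlapped that window. The strength of a peak is given as its percentile, the rank of its deposited −log10 q within its own list. The lists held 49622 to 118603 peaks on 21 chromosomes, with 52072 ± 2122 (SD, n = 3) in untreated and 55540 ± 2536 in DAC-treated B16F10, and 92033 ± 2225 and 112440 ± 5488 in 4T1. Depth is unknown, since the lists carry no read counts. Of 12 mammary epithelium markers, 12 had a promoter peak in all 6 libraries of 4T1, and 8 of 10 melanocyte markers had one in all 6 of B16F10, where Tyr and Oca2 had none. Of 10 leukocyte markers, 4 had a promoter peak in all 6 libraries of 4T1, 3 in all 6 of B16F10 and 2 in all 12. Ptprc, Cd3e, Cd79a, Itgam and Tyrobp had none in any of the 12 libraries. Of 8 fibroblast and endothelium markers, 4 had one in all 6 of 4T1 and 2 in all 6 of B16F10. In the other line, 2 melanocyte markers had one in all 6 of 4T1 and 2 mammary epithelium markers in all 6 of B16F10. Purity was not tested.

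The promoters of 5 of these genes were called in both lines with and without DAC, and the sixth, that of Ripk3, was called in DAC-treated 4T1 alone. With windows of 500 bp, Zbp1 lost its call in B16F10. Zbp1, Ripk1, Mlkl, Fadd and Cflar had a promoter peak in 12 of 12 libraries, that is 5 of 6 members, where 50.2% of all protein-coding genes did. Ripk3 had a promoter peak in 3 of 3 DAC-treated 4T1 libraries, in 0 of 3 untreated 4T1 libraries and in 0 of 6 B16F10 libraries. The count of members called in DAC-treated 4T1 alone was therefore 1 of 6, against 4.42% of all genes, and none was called in the 4T1 controls and not after DAC, against 0.361%. In B16F10 no member was called in DAC libraries alone, against 0.283%, or in controls alone, against 0.0867%. Between the untreated lines 0 of 6 members were called in 4T1 alone, against 7.93%, or in B16F10 alone, against 2.01%. With so few members these counts do not set the group apart from other genes. They say which of the 6 promoters differed. The plot of peak percentiles shows this split, with Ripk3 as the one gene with missing peaks.

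**Figure D1:**
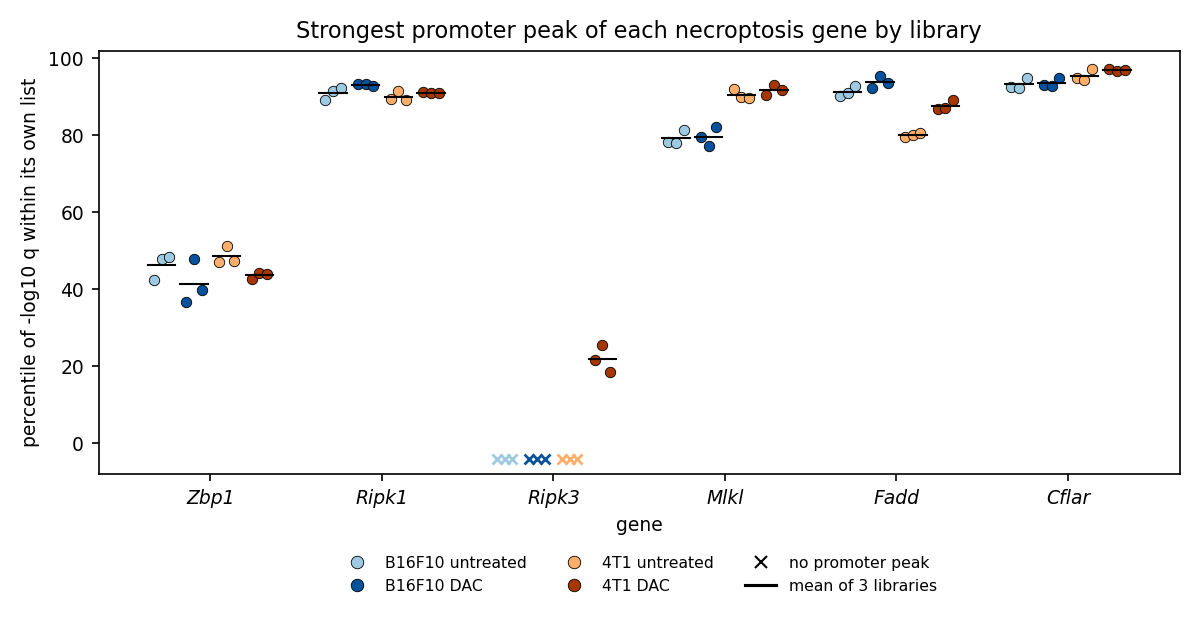
Percentile of the strongest promoter peak (y axis, rank of −log10 q within the library's own list) of the 6 genes (x axis) in each of the 12 libraries. Points are libraries, bars are means of 3 libraries and crosses are libraries with no promoter peak. Ripk3 has points in DAC-treated 4T1 alone, between 18.4 and 25.6, while Ripk1 and Cflar lie above 89 in every library.

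Ripk3, the kinase that activates MLKL, lies on the minus strand at chr14:55784995-55788865 (mm10). Its peak ran from 55788365 to 55788960 in DAC replicate 1 of 4T1, from 55788369 to 55788985 in replicate 2 and from 55788353 to 55788634 in replicate 3. The fold enrichment over local background was 3.92, 4.00 and 3.82 in these libraries, the −log10 q was 7.78, 8.82 and 6.72, and the percentile was 21.5, 25.6 and 18.4. These are weak peaks, at percentiles of 25.6 and less in lists of 108083 to 118603 peaks. The summits lay 443, 443 and 484 bp downstream of the gene's 5′ end, just past the first intron, and the peaks reached upstream over that intron. The annotated transcript start nearest to the summits was an internal one at 55788392. The gene's 5′ end itself was covered in 2 of the 3 libraries.

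The sequences under and next to this peak are shown with those upstream of Ripk1 and Mlkl, the promoters of its partner kinase and of its substrate, because these carry CpG dinucleotides, the sites from which decitabine removes methylation, at different densities. Each is read 5′ to 3′ on the strand of the gene from RefSeq (GRCm38.p6), with CpG dinucleotides in capitals. The Ripk3 sequence upstream of its exons covers chr14:55788866-55789107 and holds 8 CpG in 242 bp. The Ripk3 intron stretch, shared by all 3 peaks, covers chr14:55788463-55788616 and holds 8 CpG in 154 bp. The Ripk1 sequence upstream covers chr13:34002113-34002362 with 19 CpG in 250 bp, and the Mlkl sequence covers chr8:111338178-111338455 with 6 CpG in 278 bp.
Ripk3 upstream: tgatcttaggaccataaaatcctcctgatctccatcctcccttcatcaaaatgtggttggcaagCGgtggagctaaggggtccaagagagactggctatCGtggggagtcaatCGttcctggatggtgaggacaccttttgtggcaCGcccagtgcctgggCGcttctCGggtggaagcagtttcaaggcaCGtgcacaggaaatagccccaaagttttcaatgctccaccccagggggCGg
Ripk3 intron: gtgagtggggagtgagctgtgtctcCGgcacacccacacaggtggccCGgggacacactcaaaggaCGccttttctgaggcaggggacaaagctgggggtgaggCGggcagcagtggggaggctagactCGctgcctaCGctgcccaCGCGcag
Ripk1 upstream: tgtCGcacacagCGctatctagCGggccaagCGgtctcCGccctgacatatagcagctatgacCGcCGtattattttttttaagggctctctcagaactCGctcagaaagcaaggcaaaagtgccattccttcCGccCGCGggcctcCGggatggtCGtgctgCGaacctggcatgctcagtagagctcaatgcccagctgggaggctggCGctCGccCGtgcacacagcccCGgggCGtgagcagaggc
Mlkl upstream: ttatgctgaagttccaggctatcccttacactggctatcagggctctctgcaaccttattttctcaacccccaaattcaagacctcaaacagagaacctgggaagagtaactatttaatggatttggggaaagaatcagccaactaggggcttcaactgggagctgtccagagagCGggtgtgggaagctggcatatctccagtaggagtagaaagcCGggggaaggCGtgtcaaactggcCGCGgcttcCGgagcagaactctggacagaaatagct

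In the Ripk3 upstream sequence the CpG dinucleotides are scattered, and the run ends in a GC box (GGGCGG) at the gene's 5′ end. In the intron stretch they lie closer together toward its 3′ end. Over 500 bp either side of the 5′ end, Ripk3 had 4.00 CpG per 100 bp, near the middle of all protein-coding genes (percentile 49.3, median 4.10). The median of the 968 genes called in DAC-treated 4T1 alone was 5.29, that of genes called in all 6 libraries of 4T1 was 5.99 and that of genes called in none was 0.799. Ripk1 had 8.79 CpG per 100 bp, Fadd 6.19, Cflar 4.995 and Mlkl 4.50, so Ripk3 was below these 4, while Zbp1 had 1.499. The region covered by the 3 Ripk3 peaks, chr14:55788353-55788985, held 5.21 CpG per 100 bp.

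Both strands of the 300-bp RefSeq promoters were searched for motifs, and 5 of the 6 members had an entry. A GC box (GGGCGG) was found in 35.7% of the 32851 promoters of the table. Ripk1 had 3 matches at its first start and 4 at its second, Fadd 2 and Ripk3 1. The letters of an E-box (CACGTG, in 7.15% of promoters) occurred 1 time in Ripk3, within the upstream sequence shown above. An interferon-stimulated response element (in 3.44%) was matched 1 time in Cflar and 1 time at the second Ripk1 start, and an ETS motif (CCGGAAG, in 8.86%) 1 time in Mlkl and 2 times at the second Ripk1 start. These are matches of letters and say nothing of binding.

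The Ripk3 call rests on peaks near the lower end of their lists, so it was compared under other definitions. Peaks at or under a fold enrichment of 3.82, the lowest of the 3 Ripk3 values, made up 12.4% to 14.4% of the peaks of the untreated 4T1 lists and 25.2% to 28.9% of the DAC lists, so peaks of this fold were called in controls too. The call held at a −log10 q of at least 5 and when each 4T1 list was limited to its 89780 strongest peaks, where the Ripk3 peak stood at place 86134, 87585 and 87376. It was lost when peaks needed a fold enrichment of 5. It was also lost with windows of 2000 bp, because a peak region found in the 4T1 controls and in no DAC library of that line, at chr14:55790340-55790633, then fell inside the window. That region had its summit 1614 bp upstream of the gene's 5′ end, with percentiles of 12.1, 5.96 and 23.3 in the 3 controls. The Ripk3 locus in 4T1 thus held a weak peak with its summit inside the gene after DAC and a weak one upstream of the gene without it.

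The same pattern of 12 calls was found in 761 other genes, 3.47% of the rest, and among the 8185 genes with no call in any untreated 4T1 library 11.8% were called in all 3 DAC libraries. In lists limited to the 49622 strongest peaks, the length of the shortest list, Ripk3 had no promoter peak in any of the 12 libraries. The measure of likeness between genes therefore gives 0 for many of the 761 genes, and no gene is named as most like Ripk3.

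Zbp1 (chr2:173206612-173218923, minus strand), the nucleic acid sensor, had the weakest promoter peak of the 5 genes that were open throughout. In untreated B16F10 its peak had percentiles of 42.3, 48.0 and 48.3, and after DAC of 36.7, 48.0 and 39.9. In untreated 4T1 the values were 47.1, 51.2 and 47.5, and after DAC 42.6, 44.3 and 44.0. The 4T1 groups did not overlap, whereas the B16F10 groups did, with DAC replicate 2 among the controls.

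The plot of peak intervals shows that the extent of the Zbp1 peak differed between the lines. The peaks covered the gene's 5′ end in 6 of 6 libraries of 4T1 and in 0 of 6 of B16F10, where they were confined to upstream sequence with summits 723 to 972 bp before the start. This feature was singled out after its values were seen, and 6.31% of all genes had the 5′ end covered in all 3 untreated 4T1 libraries and in no B16F10 library. In untreated 4T1 a single peak of 1413 ± 55.0 bp (SD, n = 3) spanned both places, with its summit 837 to 908 bp upstream. In DAC replicates 2 and 3 of 4T1 it was called as separate peaks, with summits 132 and 973 bp upstream in replicate 2 and 124 and 1013 bp upstream in replicate 3. Replicate 1 kept a single peak over the start and had a further weak peak with a fold enrichment of 2.19, 458 bp downstream.

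**Figure D2:**
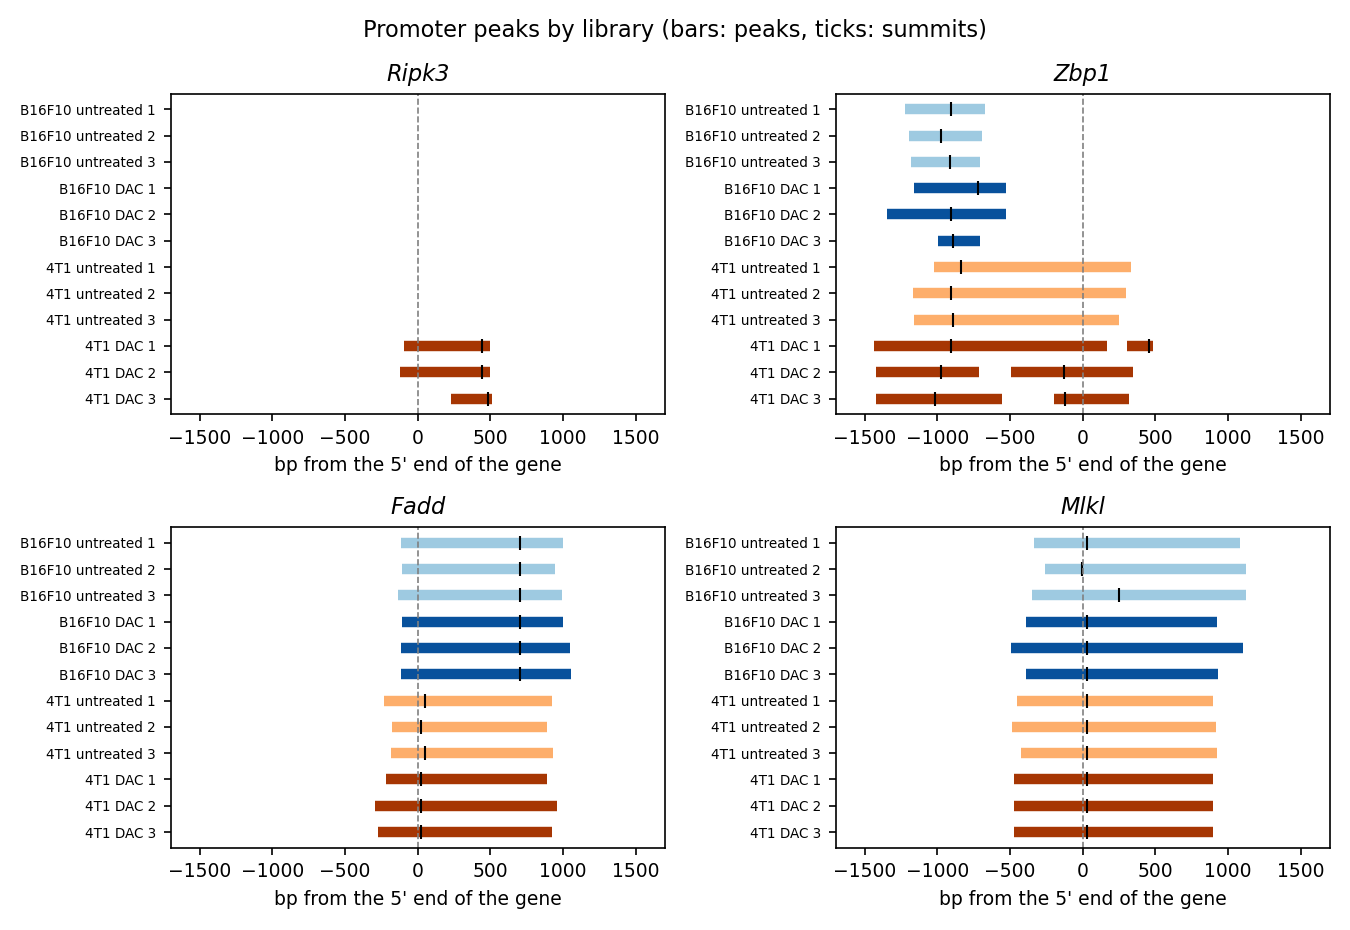
Promoter peaks of Ripk3, Zbp1, Fadd and Mlkl in each library (y axis) as bars, with summits as ticks, by distance in bp from the gene's 5′ end in the direction of transcription (x axis). The Zbp1 bars of B16F10 end before the start and those of untreated 4T1 cross it, and the Fadd summits lie at 705 bp in B16F10 and between 20 and 52 bp in 4T1.

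The fold enrichment at Zbp1 was 7.22, 8.07 and 6.89 in untreated 4T1 and 4.43, 4.47 and 4.77 in its DAC libraries, without overlap. The median fold of whole lists was lower after DAC too, at 8.38, 8.07 and 8.18 in untreated and 5.84, 5.60 and 6.05 in DAC-treated 4T1, so the Zbp1 folds moved in the direction of the lists. Promoter strength was tested with limma on the percentile of the strongest promoter peak after all lists of a line had been limited to the same number of peaks, 89780 in 4T1 and 49622 in B16F10. On this scale Zbp1 fell in 4T1 from 47.3 ± 1.36 to 29.4 ± 3.08 (SD, n = 3), a difference of −17.9 percentile points (SE 3.10, limma adjusted p = 0.00254). In B16F10 it stood at 43.5 ± 5.04 without and 34.7 ± 3.88 with DAC, a difference of −8.81 points that did not pass (SE 4.91, limma adjusted p = 0.487, 95% interval −19.8 to 2.17). In full lists of unequal length the 4T1 difference was −4.97 points (limma adjusted p = 0.131), so the call depends on equal list length, and with a fold minimum of 5 the Zbp1 promoter was called in the 3 controls of 4T1 and in none of its DAC libraries, as were 1.24% of all genes at that minimum, against 0.361% without it. Whether the split of the peak has a part in the lower rank was not tested.

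Across all genes tested this way in 4T1, 48.2% of 12826 changed rank, 33.3% upward and 15% downward, with a median difference of 0.95 points. Of the 5 members in that fit 2 were called, Zbp1 downward and Fadd upward, a share near that of all genes. The middle 90% of genes lay between −11.2 and 9.90 points, so Zbp1 was outside that range and Fadd inside it. The cut to equal length lowers a peak low in its list by more points than a peak near the top. In DAC replicate 1 of 4T1 it took Zbp1 from 42.6 to 29.2 and Fadd from 86.9 to 83.9. In full lists the Zbp1 difference was −4.97 points. How far the place of Zbp1 outside the range reflects this cut was not tested. In B16F10 0.288% of 11476 genes were called by limma, and 0 of 5 members. At an unadjusted p under 0.05, 1473 genes of B16F10 passed, and none of the members. The plot of rank differences gives these values with their intervals.

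**Figure D3:**
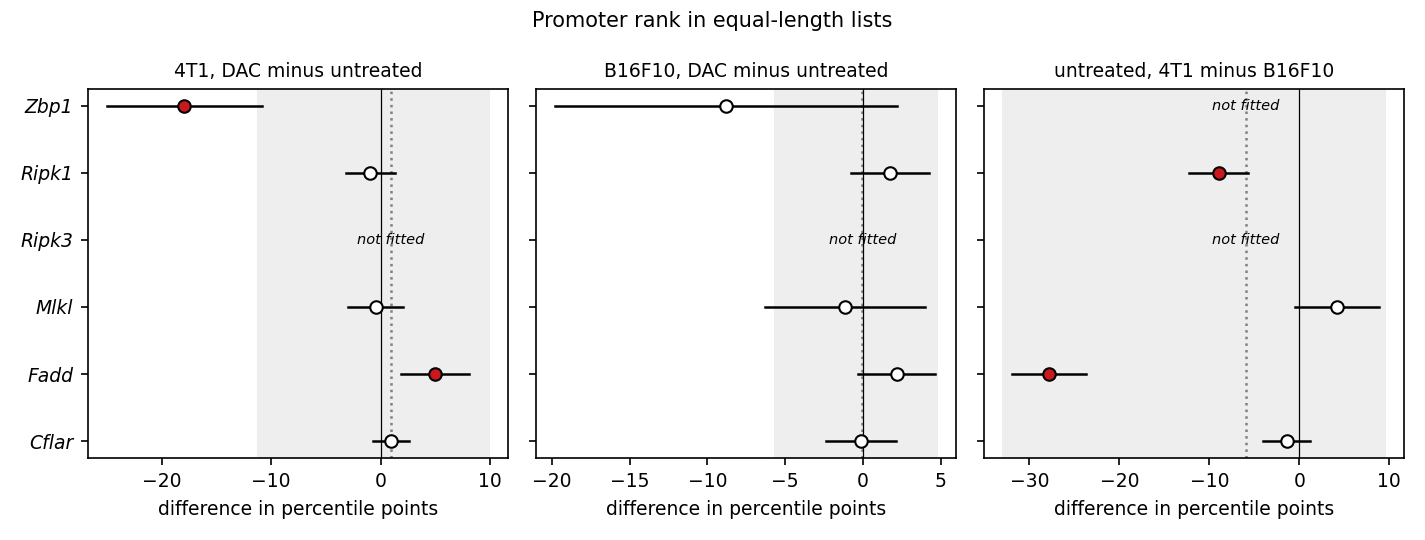
Difference in percentile points of the strongest promoter peak (x axis) for each gene (y axis), with 95% intervals, for DAC against untreated in 4T1 and in B16F10 and for untreated 4T1 against untreated B16F10. Filled points passed the test at an adjusted p of 0.05, the shaded band holds the middle 90% of all genes and the dotted line is their median. Zbp1 lies at −17.9 and Fadd at 4.98 in 4T1, and Fadd lies at −27.8 between the lines.

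Ripk1 (chr13:34002363-34037147, plus strand), the kinase that receives death receptor signals, had strong promoter peaks in every library. The fold enrichment was 14.8, 16.3 and 16.5 in untreated and 15.2, 15.05 and 15.6 in DAC-treated B16F10. In 4T1 it was 16.2, 16.8 and 15.8 without and 15.2, 15.1 and 15.6 with DAC. The groups overlapped in B16F10, and in 4T1 every DAC value lay below every control, as the list medians did. The summits lay 3 to 27 bp downstream of the 5′ end in all 12 libraries, and the region also holds a promoter of Serpinb6a, a serine protease inhibitor gene, so that the signal cannot be assigned to Ripk1 alone. DAC moved its rank by −0.96 points in 4T1 (limma adjusted p = 0.442, 95% interval −3.19 to 1.27) and by 1.74 points in B16F10 (limma adjusted p = 0.541, 95% interval −0.75 to 4.23). Ranked by fold enrichment instead, the 4T1 difference turned to 4.57 points (limma adjusted p = 0.00949). The genes with the most similar promoter percentiles over the 12 equal-length lists were Serpinb6a, which shares the peak, and then Aldh9a1 and Ap2a2, at mean absolute differences of 1.31 and 1.45 points.

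Mlkl (chr8:111311797-111338177, minus strand), the executioner, was open at its start in all 12 libraries. Its percentiles were 92.0, 89.9 and 89.6 in untreated and 90.6, 93.1 and 91.8 in DAC-treated 4T1, and 78.4, 77.9 and 81.3 and 79.5, 77.1 and 82.1 in the corresponding groups of B16F10. Within each line the groups overlapped. The summit lay 27 to 33 bp downstream of the 5′ end in 10 of the 12 libraries and at −8 and 247 bp in untreated replicates 2 and 3 of B16F10. The rank differed with DAC by −0.45 points in 4T1 (limma adjusted p = 0.755, 95% interval −2.97 to 2.06) and by −1.16 points in B16F10 (limma adjusted p = 0.877, 95% interval −6.31 to 3.99). Sdcbp, Polb and Prkab2 were the genes most like it over the 12 lists, at 1.85, 2.16 and 2.17 points.

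Fadd (chr7:144577318-144582463, minus strand), the adaptor that recruits caspase-8, rose in rank with DAC in 4T1. Its percentiles in equal-length lists were 79.6, 79.3 and 80.0 in untreated and 83.9, 83.0 and 86.9 in DAC-treated 4T1, so every DAC library was above every control. The difference was 4.98 points (SE 1.37, limma adjusted p = 0.0177), and without DAC replicate 3 it was 3.84 points with a limma adjusted p of 0.0616. In B16F10 the difference was 2.18 points and did not pass (limma adjusted p = 0.448, 95% interval −0.30 to 4.65). The difference between the lines in the DAC effect, from a fit over all 12 libraries, was 6.83 points (SE 2.75) with a limma adjusted p of 0.0683, and became 8.27 points with a limma adjusted p of 0.0374 without DAC replicate 2 of 4T1. In full lists it was 5.16 points (limma adjusted p = 0.0425), and ranked by fold enrichment 19.8 points (limma adjusted p = 0.0113). That interaction was called in 32.7% of 10497 genes and in 0 of the 4 members fitted. At an unadjusted p under 0.05 it passed for 1 member, Fadd, and for 43.7% of all genes.

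The Fadd peak also had a different shape in the 2 lines. Its summit lay 705 bp downstream of the 5′ end in all 6 libraries of B16F10, and 20 to 52 bp downstream in all 6 of 4T1, although the intervals were about as long, at 1101 ± 41.0 bp (SD, n = 3) in untreated B16F10 and 1113 ± 43.1 bp in untreated 4T1. In lists of equal length the untreated percentiles were 91.0 ± 1.44 in B16F10 and 63.1 ± 0.672 in 4T1, a difference of −27.8 points (SE 1.94, limma adjusted p = 7.33e-09). For this contrast 75.4% of 10497 genes were called, with a median of −5.98 points, and 2 of 4 members were, Fadd and Ripk1, both lower in 4T1 as were 61.2% of all genes. Ripk1 differed by −8.96 points (SE 1.53, limma adjusted p = 7.01e-05), near the median of all genes, whereas Fadd lay further from it. Both were inside the band shaded for all genes in the plot of rank differences, −32.9 to 9.54 points for this contrast. In full lists the Fadd difference was −11.3 points (limma adjusted p = 2.15e-06). Mlkl (4.14 points, adjusted p = 0.0979) and Cflar (−1.38 points, adjusted p = 0.317) did not pass in limma. In full lists Mlkl was 11.3 points higher in 4T1 (limma adjusted p = 2.2e-05), and without untreated replicate 3 of 4T1 the Cflar difference was −2.97 points (limma adjusted p = 0.0224). The Ripk1 difference in full lists was −0.96 points with a limma adjusted p of 0.412. Cflar turned to 2.19 points in full lists (limma adjusted p = 0.0334) and was at −26.9 points when ranked by fold enrichment (limma adjusted p = 4.54e-06). The calls for Ripk1, Mlkl and Cflar thus depend on list length. Zbp1 lacked a peak in the equal-length lists of DAC-treated 4T1 and Ripk3 in all 12 lists, so neither was fitted.

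The local background under each peak was recovered from its deposited fold enrichment and p-value. As a ratio to the library median, that of 162 to 236 sampled peaks per library, it was lower at Fadd in 4T1 than in B16F10, as the rank was. The ratio was also lower after DAC in both lines, where the rank was not lower. Under the Fadd peak the background was 19.9 ± 1.96 times the median of the library (SD, n = 3) in untreated B16F10, 14.6 ± 1.22 times after DAC, 8.71 ± 0.0700 times in untreated 4T1 and 5.43 ± 0.0513 times after DAC. Before division it was 42.1, 36.5 and 40.2 in untreated and 28.2, 36.5 and 30.1 in DAC-treated B16F10. In 4T1 it was 36.1, 38.7 and 34.6 without and 31.8, 35.7 and 28.4 with DAC. The untreated lines thus overlapped, as did the arms of each line. The library medians were 1.91, 2.02 and 2.05 in untreated B16F10, lower than in 4T1. Under the Ripk3 peaks the background was 1 time the library median in all 3 DAC-treated 4T1 libraries. In these libraries that median was itself at the low end of the sampled peaks. Under Ripk1 in 4T1 it was 4.11 ± 0.0900 times without and 2.79 ± 0.0835 times with DAC, and under Cflar 10.1 ± 0.655 and 7.54 ± 0.679 times. Before division by the library median the Ripk1 values in 4T1 were 16.7, 18.7 and 16.4 without and 17.0, 17.7 and 14.6 with DAC, while the library medians were 4.13, 4.43 and 4.01 without and 5.89, 6.51 and 5.28 with DAC. The lower ratio at Ripk1 thus went with a higher library median. The part of the local background in the rank differences was not tested. Fadd was most like Cep76 and Psmg2, which share a peak, at 1.17 points, and Gdpd1, at 2.01 points.

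Cflar (chr1:58711508-58758884, plus strand), the gene of cFLIP, had the strongest promoter peaks of the 6 by percentile in 4T1. The values were 94.9, 94.4 and 97.2 in untreated and 97.3, 96.8 and 97.1 in DAC-treated 4T1, and 92.6, 92.4 and 94.8 and 93.0, 92.9 and 94.9 in the corresponding groups of B16F10. The groups overlapped in both lines. The summit lay 1144 to 1186 bp downstream of the 5′ end in all 12 libraries, between its first cluster of starts and a second one from 58713294 on. The DAC differences were 0.96 points in 4T1 (limma adjusted p = 0.294, 95% interval −0.68 to 2.60) and −0.16 points in B16F10 (limma adjusted p = 0.968, 95% interval −2.41 to 2.09). Without untreated replicate 3 of 4T1, whose percentile of 97.2 stood apart from the other controls, the 4T1 difference was 1.84 points with a limma adjusted p of 0.017. Ranked by fold enrichment it was 8.47 points with a limma adjusted p of 0.00731. The most similar genes were Ahcy, at 0.943 points, and Diablo and Gm49027, which share a peak, at 0.996 points. Diablo encodes an antagonist of inhibitor of apoptosis proteins.

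Within 50 kb of the 6 genes and in their bodies, the peaks of the 6 libraries of 4T1 merged into 114 regions and those of B16F10 into 69. The DAC-alone class in 4T1 held 7 of the 114, or 6.14%, where it held 12% of all 146901 regions of the line, and the control-alone class held 2, or 1.75%, where it held 3.57% of them. In B16F10 the DAC-alone class held 0 of 69, against 2.26% of its 79494 regions, and the control-alone class held 1, against 0.886%. Regions around the necroptosis genes were therefore not more often called in DAC-treated 4T1 alone than regions at large. The map of regions shows that 3 of the 7 lay at Ripk3, 2 at Cflar and 1 each at Zbp1 and Mlkl.

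**Figure D4:**
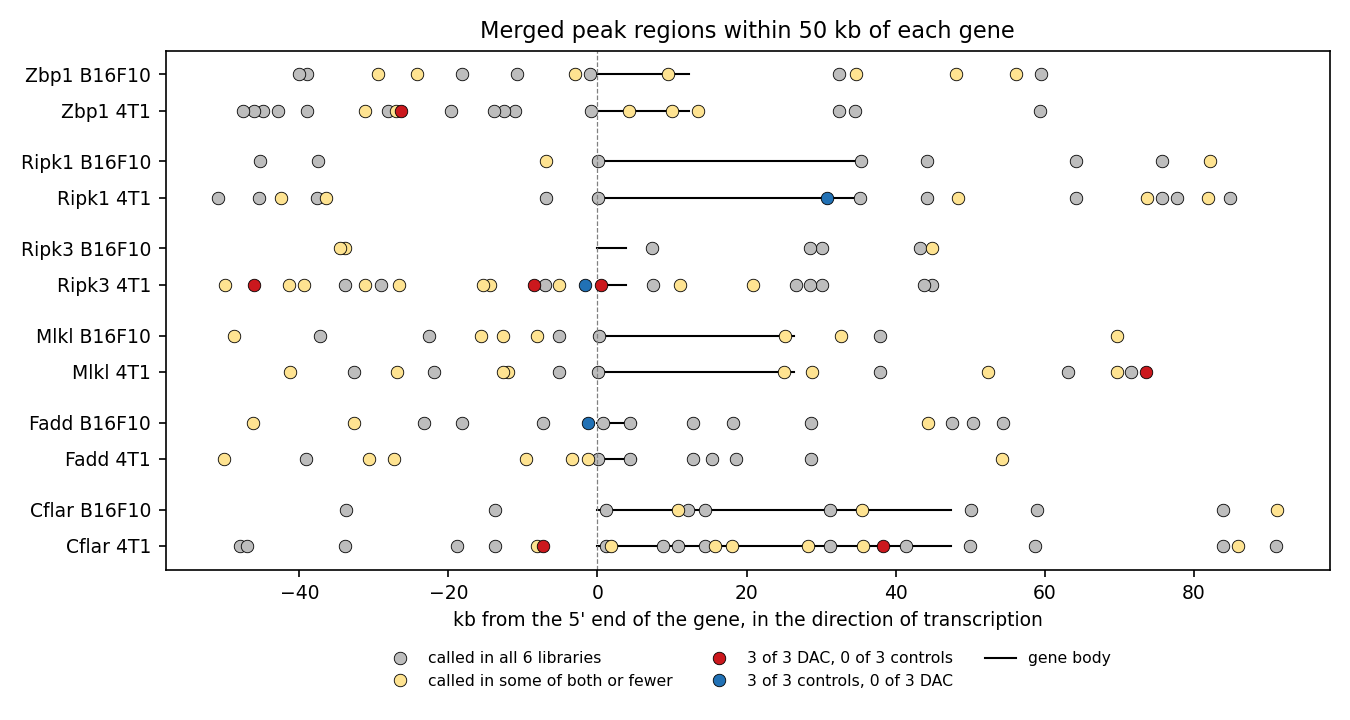
Merged peak regions of each line within 50 kb of each gene (y axis, gene and line), by distance in kb from the gene's 5′ end in the direction of transcription (x axis). Points are regions, coloured by the libraries that called them, and horizontal lines are gene bodies. The 7 red points, called in 3 of 3 DAC and 0 of 3 control libraries, are all in 4T1, with 3 of them at Ripk3.

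Around Ripk3, untreated 4T1 libraries had 12, 14 and 12 peaks and DAC libraries 19, 21 and 17, a ratio of means of 1.5 where that of all peaks was 1.22. This was the highest ratio of the 6 genes. It was 1.38 at Mlkl, 1.28 at Zbp1, 1.03 at Cflar and at Ripk1 and 0.818 at Fadd. Over all 6 genes together it was 1.16, below that of all peaks. In B16F10 the counts around Ripk3 were 7, 5 and 6 without and 6, 6 and 6 with DAC. Besides the promoter, 2 regions near Ripk3 were called in DAC-treated 4T1 alone. The first, chr14:55797012-55797478, lay 8454 bp upstream with percentiles of 42.4, 55.0 and 43.0, stronger than the promoter peak, and 95.9% of its bases were repeats. The other, chr14:55834782-55835068, lay 46062 bp upstream with percentiles of 0.530, 22.3 and 1.44, at the lower end of 2 of the 3 lists.

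The region of highest percentile among the 7 was chr2:173245174-173245466, 26384 bp upstream of Zbp1 and inside Pmepa1, a gene of a membrane protein that dampens TGF-beta signalling. Its percentiles were 59.6, 57.1 and 61.7 in the 3 DAC libraries of 4T1, and it held 7.85 CpG per 100 bp, more than the Zbp1 promoter. At Cflar the regions were chr1:58703995-58704342, 7306 bp upstream with a lowest percentile of 36.0, and chr1:58749533-58749993, in the gene body with a lowest percentile of 48.5. Repeats made up 89.7% and 100% of their bases. At Mlkl the region chr8:111264519-111265092, 73610 bp downstream of the 5′ end, had a lowest percentile of 22.7. Others were called in controls alone, chr13:34033032-34033283 in the body of Ripk1 in 4T1 and chr7:144583527-144583976, 1294 bp upstream of Fadd, in B16F10.

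Of 44 further genes of the pathway, fixed as a list of ligands, receptors, ubiquitin enzymes, kinases and repair factors, 40 had a promoter peak in all 12 libraries, where 50.2% of all genes did. Fas, the death receptor that signals through FADD, was the 1 gene of the list called in DAC-treated B16F10 alone, against 0.283% of all genes. No list gene was called in 1 arm alone in 4T1, against 4.42% for DAC and 0.361% for controls. As 42 of the 44 were called in all 6 libraries of 4T1, few could have been. The B16F10 peaks of Fas had percentiles of 45.9, 47.6 and 40.2 and fold enrichments of 8.45, 8.65 and 7.34 in the DAC libraries, and none of the 3 untreated libraries had a peak. In 4T1 Fas had peaks in all 6 libraries, with percentiles of 81.2, 87.7 and 85.4 without and 91.0, 90.8 and 89.4 with DAC. The B16F10 summits lay 12 to 26 bp upstream of the 5′ end and those of 4T1 29 or 30 bp upstream, so the same stretch was open in both. The Fas promoter was thus called after DAC alone in the melanoma line, and that of Ripk3 in the mammary carcinoma line.

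Birc3, the gene of the ubiquitin ligase cIAP2, was called in 6 of 6 libraries of 4T1, at percentiles of 90.4 to 94.0, and in 0 of 6 of B16F10. Tnf, the gene of the cytokine that starts the RIPK1 pathway, was called in 6 of 6 libraries of B16F10, at percentiles of 26.7 to 60.6, and in 1 of 6 of 4T1, the DAC replicate 2, at a percentile of 5.01. Fasl, the ligand of Fas, was called in none of the 12. Between the untreated lines the list thus had Fas and Birc3 called in 4T1 alone, where 7.93% of all genes were, and Tnf in B16F10 alone, where 2.01% were.

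In rank, 13 of 42 list genes rose with DAC in 4T1 and 4 fell, with a median of 1.55 points against 0.95 over all genes, shares near those of all genes. Tnfrsf10b, a TRAIL death receptor gene, rose by 12.5 points (SE 2.28, limma adjusted p = 0.00319), and Itpk1, an inositol phosphate kinase gene whose products MLKL needs, by 11.0 points (SE 1.93, limma adjusted p = 0.00273). Others that rose were Cyld, Ifnar2, Ikbkg, Mapkapk2, Otulin, Ppm1b, Rnf31, Sharpin, Stub1 and Traf2, by 1.21 to 5.78 points. Rnf31 and Sharpin encode subunits of the linear ubiquitin complex that acts on RIPK1, and Otulin and Cyld the enzymes that take such chains off. Axl, a receptor tyrosine kinase gene, fell by 19.5 points (SE 2.56, limma adjusted p = 0.000811), and Chmp2a, Tradd and Uhrf1 fell by 6.62, 5.26 and 5.41 points. Of 41 list genes tested in B16F10, 0 passed in limma, and 5 had an unadjusted p under 0.05, where 12.8% of all genes did.

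Casp8, the caspase that cleaves RIPK1 and RIPK3, is a neighbour of Cflar, with promoter regions 83935 and 91039 bp from the 5′ end of Cflar in 4T1 and 83930 and 91125 bp from it in B16F10. Its promoter was called in all 12 libraries and stood 33.2 points higher in untreated 4T1 than in untreated B16F10 (SE 2.61, limma adjusted p = 2.43e-08), against the median of −5.98 points. Of the 40 list genes tested in that contrast, 6 were higher and 25 lower in 4T1, against 14.2% and 61.2% of all genes, with a median of −4.93 points. Tnfrsf1a, the TNF receptor gene, was lower by 38.4 points there (SE 2.37, limma adjusted p = 2.53e-09). These differences come from lists cut to 49622 peaks, and their size depends on that cut. In full lists the lowest percentile of Tnfrsf1a was 70.4 in untreated 4T1 and 84.9 in untreated B16F10. That of Casp8 was 93.6 and 54.2.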

How the data were processed

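The data were 12 ATAC-seq peak lists in narrowPeak layout, 1 per library, called on each library alone. Per the submitters' processing notes, the tools were MACS2, Bowtie2, Picard, FastQC, MultiQC, ChIPseeker and DiffBind and the genome build was mm10. Versions and options are not given in the sources used here. The deposited fold enrichment is a ratio to local background within a library. The −log10 p-value and the −log10 q-value, both as deposited, grow with depth, and the deposited score is 10 times the −log10 q-value without decimals. Every list ended at a q of 0.05. Depth per library is unknown, so no counting interval was given.

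Genes came from GENCODE M21 (21911 protein-coding genes with 93472 transcript starts) and sequence from RefSeq GRCm38.p6. All peaks lay inside the chromosomes of that assembly. A line's peaks were merged where they overlapped by at least 1 bp. "DAC alone" means 3 of 3 DAC and 0 of 3 control libraries. Local background was recovered as the Poisson mean that gives the deposited p-value at the deposited fold, with 1 added to pileup and background. Ranks were tested with limma 3.58.1 in R 4.3.3 (trend, no block), with Benjamini-Hochberg adjustment over all genes with a peak in every library of the fit and a threshold of 0.05. Other steps used Python 3.11.15. In simulated data, limma called 34% of genes shifted by 10 points and 92% of those shifted by 20 in the 4T1 fit of 12826 genes, and 6% and 59% in the B16F10 fit of 11476 genes. The shifted genes, 100 per size of shift, were picked near the middle of the lists, and all other genes were left unshifted. These shares therefore do not describe peaks near the top, where most members stood, or a fit in which many genes change.

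The members and lists were chosen with earlier results of these data known. All members are named, as are up to 3 genes per member with the smallest mean absolute difference in percentile over 12 libraries, list genes called in 1 arm or 1 line alone, and regions called in 1 arm alone. List genes whose rank passed the test, the list genes Fasl, Casp8 and Tnfrsf1a, and marker genes are named outside this rule, after their values were seen. A list gene is not reported here by name. Alternatives were a stricter q, a fold minimum, equal numbers of peaks, 2 of 3 libraries, other window widths and overlaps, the gene's 5′ end alone, other rank scales, a replicate block and each library left out.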

Additional observations from a re-analysis of the deposited data

How the results depend on the processing

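Most values were counted as unchanged, 433 of 490 for counts and 514 of 532 for single genes. The cause was not tested for the changed ones below. Unchanged did not mean the same sign where a difference passed in no setting. The Mlkl difference in 4T1 ran from −0.97 to 3.18 points over the settings and was counted as unchanged. Smaller moves of a count were left in too, such as 707 genes (from 968) in DAC alone in 4T1 at a −log10 q of at least 5. At a −log10 q of at least 5, regions near the 6 genes called in controls alone became 5 (from 2) in 4T1 and 2 (from 1) in B16F10. At a fold enrichment of at least 5, 0 members were called after DAC alone in 4T1 and 1 member had the reverse pattern, pathway genes in 4T1 controls alone became 1 (from 0), control-alone regions in 4T1 12, and members called by rank in 4T1 1 (from 2). Over all genes that setting gave 258 in DAC and 272 in controls alone in 4T1 (from 968 and 79) and 41 in DAC alone in B16F10 (from 62). That brought the DAC share of the 4T1 calls from 92.5% to 48.7%, and in B16F10 from 76.5% to 60.3%. With equal numbers of peaks the 4T1 counts were 524 and 186, a DAC share of 73.8%, with 8 control-alone regions, and the B16F10 share was 62.5%. With 2 of 3 libraries against 0 of 3, all genes in controls alone became 128 in 4T1, all genes in B16F10 192 and 65 (from 62 and 19), regions in DAC alone 12 in 4T1 (from 7) and 2 in B16F10 (from 0), and control-alone regions in B16F10 4. Windows of 500 bp and of 2000 bp each put 1 member (from 0) in untreated 4T1 and in no untreated B16F10 library, and 2000 bp left 0 members in DAC libraries alone in 4T1. The gene's 5′ end alone put 1 pathway gene in 4T1 controls alone.

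By rank, full lists called 1 member in 4T1 and 1 for the difference between lines (from 0), and ranking by fold enrichment called 4 members in 4T1, 4 between untreated lines (from 2), and 2 members and 5628 genes for the interaction (from 3435). Ranking by fold enrichment reversed Ripk1 in 4T1 (4.57 points) and Mlkl between the lines (−16.3 points), and full lists reversed Cflar between the lines (2.19 points, adjusted p = 0.0334 in limma). The 33 genes called in B16F10 became 17 with the 5′ end alone, 119 with normal scores and 14 by fold enrichment.

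Leaving out each library in turn gave 0 to 2 genes called by rank in B16F10, 1 member in 4T1 without DAC replicate 3 and 1 member for the interaction without 4T1 DAC replicate 2. It gave 105 to 121 genes in DAC alone in B16F10 without DAC replicate 3 or 1, and 32 to 38 in controls alone there without control replicate 1, 2 or 3 or DAC replicate 2 or 3. Regions near the members became 11 or 12 in DAC alone in 4T1 without DAC replicate 3 or control replicate 2, 5 in controls alone in 4T1 without DAC replicate 1, 1 in DAC alone in B16F10 without control replicate 2 or DAC replicate 2 or 3, and 2 to 3 in controls alone in B16F10 without control replicate 1 or 3 or DAC replicate 3. The Ripk3 call in DAC-treated 4T1 alone held without each library.

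With a replicate block, 0 genes were called in B16F10, and no other count of calls moved by over 1.5 times. Same-numbered libraries had correlations of deviations between −0.075 and 0.037, and other-numbered ones between −0.057 and 0.091. The ranks thus gave no sign of pairing by number, but they cannot show that there was none. With 3 libraries a group, limma found few simulated shifts of 10 points among mid-list peaks in B16F10, and weak peaks may be missed where depth is low.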
